A study of Homo sapiens with 3 samples.

Results

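The genes described here are 38 genes of the NRF2 antioxidant and detoxification response, taken by name from the 58735 genes of the count tables. The set holds the transcription factor NRF2 itself (gene NFE2L2), its inhibitor KEAP1, a DNA-binding partner, and enzymes, carriers and pumps known as its targets. Of the 38 genes, 37 are protein-coding and 1, SLC7A11-AS1, is an antisense RNA. All 38 were found, all averaged 1 CPM (counts scaled to library size) or more over the libraries, and 37 averaged 10 CPM or more. The study asks what the RNA helicase DDX24 does in lung cancer cells, and RNA of A549 with and without its depletion was sequenced. A549 is an established line from a human lung adenocarcinoma, here grown in F12K medium with fetal bovine serum. Of the 3 libraries, Control-sh is the control, and DDX24-sh1 and DDX24-sh2 (sh1 and sh2 for short) each carry a different short hairpin RNA against DDX24. All 3 come from cells transduced stably with the lentiviral vector pLKO.1 and selected with puromycin, so the control shares the vector and the selection. The control is an empty vector in the study's methods and a control shRNA elsewhere in its text, and which of them this library holds is not known.

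NRF2 is a transcription factor that is normally held at a low level by KEAP1, which brings it to a ubiquitin ligase for degradation. When KEAP1 is oxidized or mutated, NRF2 persists, pairs with a small MAF protein and binds antioxidant response elements near genes for glutathione and thioredoxin metabolism, NADPH supply, haem breakdown, iron storage and drug disposal. A549 cells carry a KEAP1 mutation and are widely used as a model of constitutively active NRF2, so high levels of these genes are a known trait of the line.

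The antioxidant response element has the core letters TGACNNNGC, where N is any base. It was searched on both strands in the RefSeq promoter windows of GRCh38.p14, which run from 250 bases before to 50 bases after each annotated start. Of the 38 genes, 28 had at least 1 window, and 9 of the 28 (32.1%) held the core, against 16.1% of the 27305 genes with a window. Counted by window, it was 10 of 36 (27.8%) against 13.3% of 35116. The 9 genes were GPX2, GCLM, KEAP1, TXNRD1, EPHX1, CBR1, PGD, IDH1 and ME1. A fuller form of the element has an A after the core. It was singled out after the matches had been seen, and its share over all genes was not taken. The first 6 of the 9 genes held this form. They are printed because they link the named genes to the factor's known binding letters, on the strand that carries the core, with the core in capitals and 6 bases on either side:
GPX2: ccaggaTGACTTAGCaaaaac
GCLM: agacaaTGACTAAGCagaaat
KEAP1: tcaccaTGACTAAGCagagcc
TXNRD1: tcagaaTGACAAAGCagaaat
EPHX1: attggcTGACTTGGCaggact
CBR1: ctagccTGACTTTGCagaacc

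The GPX2 stretch lies at chr14:64942853-64942873 on the plus strand, opposite to the gene, and its core falls in an annotated untranslated exon of GPX2 and within CHURC1 and CHURC1-FNTB. The GCLM stretch is at chr1:93909450-93909470 and the KEAP1 stretch at chr19:10502788-10502808. Both are read from the plus strand, opposite to their genes, and both cores touch an untranslated exon at the 5′ end of the gene. The TXNRD1 stretch is at chr12:104286924-104286944 on the minus strand, in an untranslated exon beside an internal start of the gene. The EPHX1 stretch, at chr1:225825270-225825290 on the plus strand, lies in an intron upstream of an internal start. The CBR1 stretch, at chr21:36069859-36069879 on the minus strand, lies outside CBR1 and within SETD4 and AP000688.1. A match shows the letters and not binding, and genes without a match or without a window may carry the element elsewhere.

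The counts summed to between 17218884 and 18337471 per library, and libraries were scaled by edgeR's TMM factors, which lay between 0.991 and 1.01. The log2 ratio of a gene to the control used CPM to which a prior count of 2 had been added, and the interval beside it is an exact 95% interval from the 2 counts. Each condition has 1 library, so no difference has a replicate check, no test was run, and the intervals cover counting error only. Both ratios of a gene share Control-sh. DDX24, the targeted gene, had 2010 counts in the control against 637 with sh1 and 765 with sh2, which is 29.6% and 36.0% of the control level after scaling. The names of the shRNA libraries are exchanged between the deposited counts and the deposited FPKM, and the names used here are those of the counts. Epithelial markers summed to between 4958 and 5333 CPM, most of it from the keratins KRT8 and KRT18, with EPCAM at 29 to 32 counts. The other 2 of the 5 lay past 1.5-fold on opposite sides of the control, KRT19 with 1001, 2251 and 2728 counts and CDH1 with 538, 358 and 261. Of the 4 alveolar type II markers, SFTPA1 was at 0 and the sum was 1.52 to 2.38 CPM, so these markers were near the floor in all libraries. Of the 4 leukocyte markers PTPRC and CD3E were at 0, CD68 had 0, 1 and 5 counts, and CD14 had 139, 108 and 75. Of the 4 fibroblast markers, COL1A1 had 139, 174 and 143 counts, and COL1A2 and DCN had at most 3. The fibroblast marker LUM had 27, 80 and 68 counts (log2 ratios of 1.40 and 1.20). The 3 endothelial markers summed to 0.50 to 0.77 CPM. Mitochondrial genes took 4.36% of the control's counts and 5.13% and 7.04% of those of the sh1 and sh2 libraries, and their part in the ratios below was not tested.

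In the control library the 38 genes together took 4.81% of all counts (exact binomial interval 4.80 to 4.82%). They took 5.13% in DDX24-sh1 and 4.58% in DDX24-sh2. With mitochondrial genes left out the shares were 5.03%, 5.41% and 4.92%. Most of this lay on few genes: the 5 aldo-keto reductases took 1.72%, 2.02% and 1.52%, and the 4 haem and iron genes 1.08%, 1.12% and 1.07%. The 7 other drug and carbonyl enzymes took 0.905%, 0.972% and 1.03%. The plot of shares by role shows that the aldo-keto reductases set most of the difference between the libraries, being highest in DDX24-sh1 and lowest in DDX24-sh2. Their rise in DDX24-sh1 lay mainly on 1 gene, AKR1B1, with 154219, 236561 and 135635 counts. AKR1C1, AKR1C2 and AKR1C3 together had 103812, 89987 and 92350, fewer in DDX24-sh1 than in the control.

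**Figure D1:**
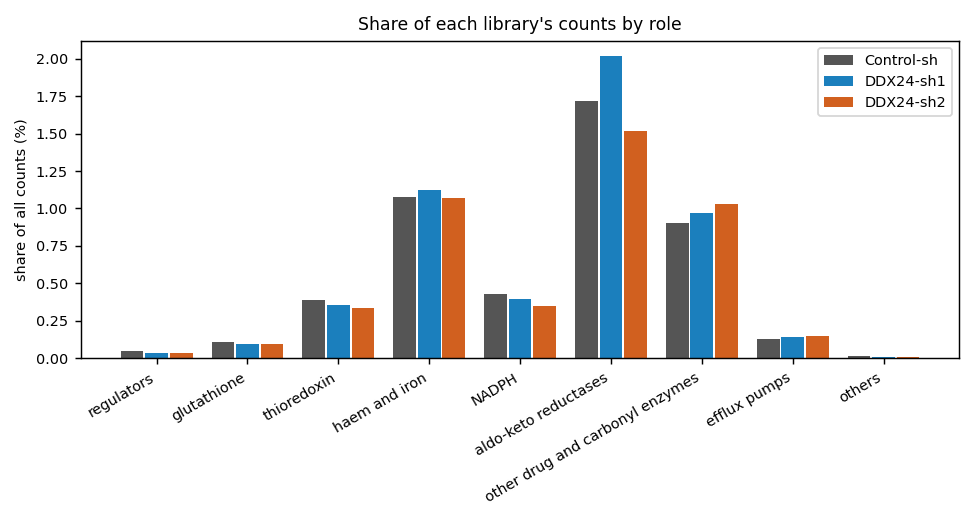
Share of each library's counts (percent, axis from 0) on the NRF2 pathway genes by role, with 1 bar per library and no error bars, since there is 1 library per condition. The aldo-keto reductases took 1.72% of the counts in the control, 2.02% with sh1 and 1.52% with sh2, while the regulators took under 0.05% in each.

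Per kilobase of the deposited gene length, FTL, the light chain of the iron store ferritin, was the highest of all genes in Control-sh, at 8557 CPM per kb. It was also first in DDX24-sh1 (8901) and in place 4 in DDX24-sh2 (9162). AKR1B1, the aldose reductase, came next among the 38 at 2469, 3534 and 2053 CPM per kb, followed in Control-sh by ALDH1A1 at 1979, AKR1B10 at 1270 and FTH1 at 1226. The order of these 5 differed between libraries, with ALDH1A1 (2062) and AKR1B1 level in DDX24-sh2. At the other end were GSTM3, at 3.44, 3.79 and 2.75 CPM per kb, and SLC7A11-AS1, at 0.209, 0.115 and 0.225. NFE2L2 itself stood at 28.5 CPM per kb in Control-sh beside KEAP1 at 29, far below its most abundant targets. These levels are of RNA from whole cultures, in which fewer cells expressing a gene and less RNA per cell cannot be told apart.

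**Figure D2:**
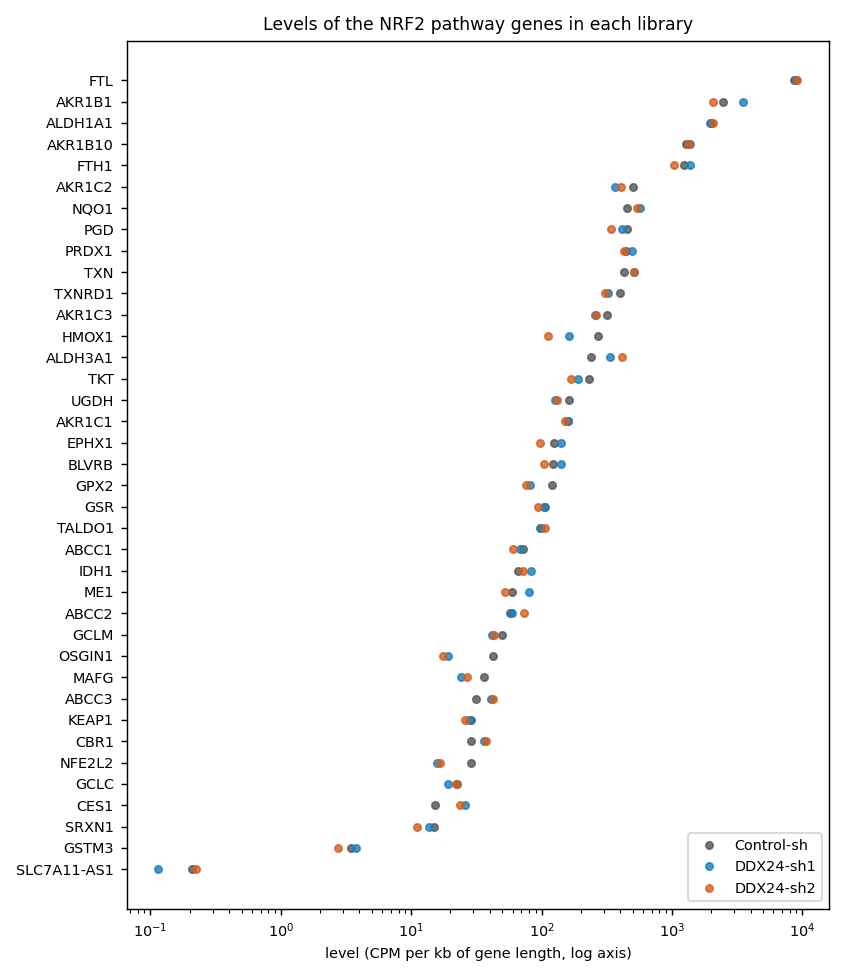
Level of each NRF2 pathway gene in CPM per kb of gene length on a log axis, with 1 point per library and genes ordered by Control-sh. FTL is the highest at 8557 in Control-sh and SLC7A11-AS1 the lowest at 0.209, and for most genes the 3 points lie close together compared with the distance between genes.

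Against the control, the 38 genes were centred like all genes in DDX24-sh1 and below them in DDX24-sh2. In DDX24-sh1 their median log2 ratio was -0.02 (quartiles -0.30 and 0.20), beside -0.02 over the 13984 genes averaging 1 CPM or more. In DDX24-sh2 it was -0.21 (quartiles -0.34 and 0.10), beside -0.03 over all genes, whose lower quartile was -0.27. In DDX24-sh1, 18 were above 0 and 20 (52.6%) below, where 52.6% of all genes were below, and the interval cleared 0 for 16 and 15 of them. In DDX24-sh2, 13 were above 0 and 25 (65.8%) below, where 53.0% of all genes were below, and the interval cleared 0 for 12 and 23. The median size of the log2 ratio, without its sign, was 0.27 and 0.28, beside 0.24 and 0.24 over all genes and 0.20 and 0.20 over the 9661 genes averaging 10 CPM or more. Of those 9661 genes, 55.1% were below 0 in DDX24-sh1 and 56.0% in DDX24-sh2, with median log2 ratios of -0.035 and -0.042.

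A ratio of at least 1.5-fold was used as a rule of size. In DDX24-sh1, 1 of the 38 genes was that much higher than Control-sh (CES1), 2.63% against 7.59% of all genes averaging 1 CPM or more. There, 5 were that much lower (OSGIN1, NFE2L2, SLC7A11-AS1, HMOX1 and MAFG), 13.2% against 8.25%. In DDX24-sh2, 2 were higher (ALDH3A1 and CES1), 5.26% against 8.60%, and 4 were lower (HMOX1, OSGIN1, NFE2L2 and GPX2), 10.5% against 9.51%. Most of the 38 are abundant, and genes with few counts pass a fold more easily, so the shares were also taken over genes averaging 10 CPM or more. There, 1 of 37 (2.70%) was higher in DDX24-sh1 against 3.52% of all genes and 4 (10.8%) were lower against 6.07%. In DDX24-sh2, 2 of 37 (5.41%) were higher against 3.48%, and 4 (10.8%) were lower against 7.06%. These are counts of 1 to 5 genes, and they lie within a few genes of the background. The plot of the 38 ratios over the spread of all genes shows the same.

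**Figure D3:**
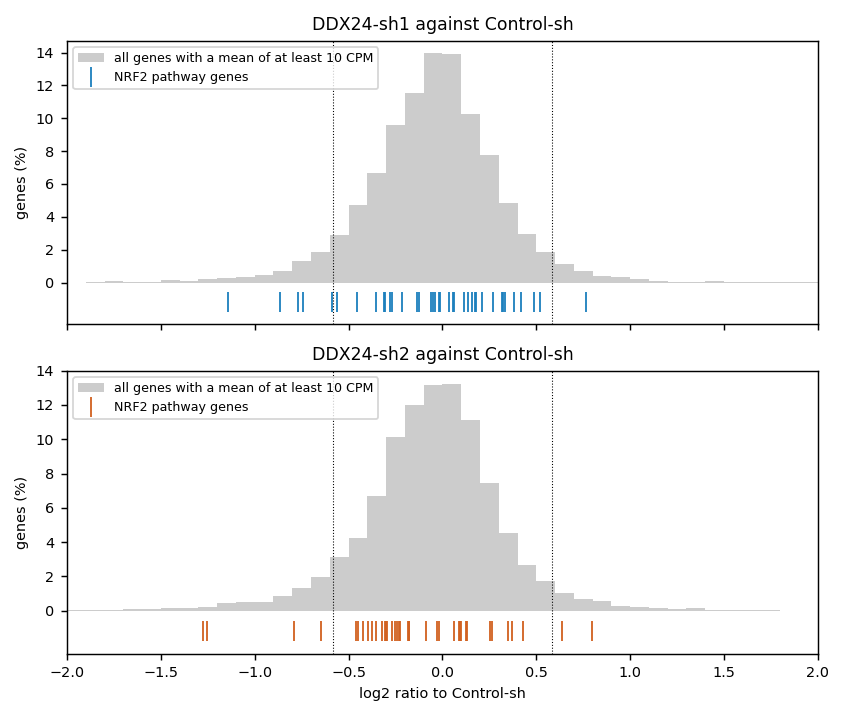
Distribution of the log2 ratio to Control-sh over all genes averaging 10 CPM or more (grey bars, percent of genes per bin) and the 38 NRF2 pathway genes (ticks below 0), for each shRNA library. Dotted lines mark 1.5-fold, and most ticks lie between them, with a median of -0.02 for sh1 and -0.21 for sh2.

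The regulators were lower in the shRNA libraries, apart from KEAP1 in DDX24-sh1. NFE2L2 (ENSG00000116044, chromosome 2 of GRCh38, 177227595 to 177392697, minus strand) had 2910 counts in the control, 1713 with sh1 and 1781 with sh2. That is 55.0% and 57.9% of the control level, log2 ratios of -0.86 (-0.95 to -0.78) and -0.79 (-0.87 to -0.70). The control is the high library, and the shRNA libraries differed by no more than counting error (0.08, -0.02 to 0.17). NFE2L2 shares part of its locus with AGPS on the opposite strand, which had 2272, 2271 and 2370 counts, and whether counting used strand is not given in the sources used here. MAFG, a small MAF protein that pairs with NRF2 on DNA, had 3203, 2283 and 2528 counts, log2 ratios of -0.59 (-0.67 to -0.51) and -0.42 (-0.50 to -0.35). In DDX24-sh1 MAFG stood just past 1.5-fold, which is 0.58 in log2 units, and GPX2 at -0.56 just short of it. MAFG was also short of it under DESeq2's size factors (-0.57) and scaling by total counts (-0.58), where 4 of the 38 genes were that much lower in place of 5. KEAP1 had 1861, 1923 and 1740 counts. Its ratio was not distinguishable from 0 in DDX24-sh1 (-0.05, -0.15 to 0.04) and was -0.18 (-0.27 to -0.08) in DDX24-sh2.

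**Figure D4:**
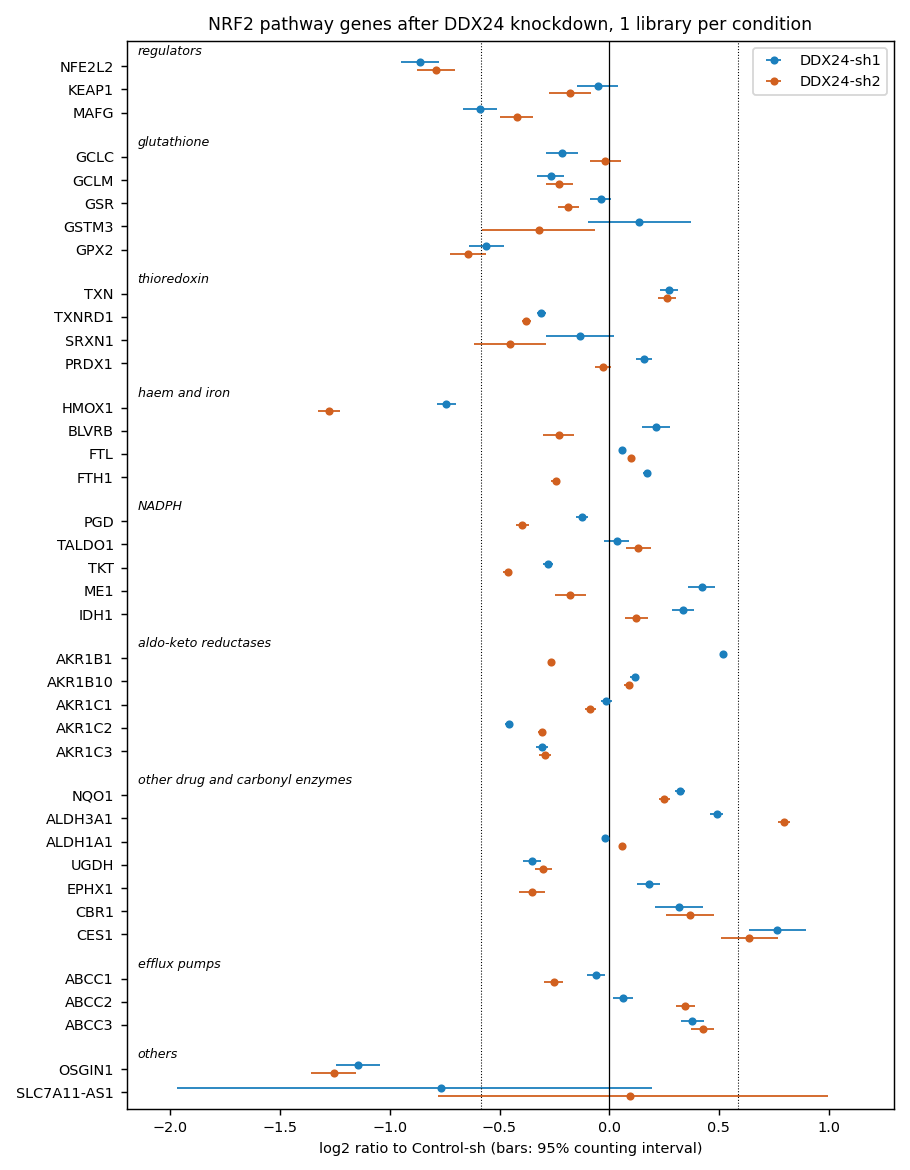
Log2 ratio to Control-sh of the 38 NRF2 pathway genes in DDX24-sh1 (blue) and DDX24-sh2 (orange), grouped by role, with exact 95% intervals that cover counting error only and dotted lines at 1.5-fold. OSGIN1, HMOX1 and NFE2L2 lie well to the left in the 2 libraries, and CES1 and ALDH3A1 to the right, with AKR1B1 to the right for sh1 alone.

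Of the 5 glutathione genes, none was above the control with sh2 except GCLC when libraries were scaled by total counts (0.01), and the group medians were -0.22 and -0.23. GPX2 (ENSG00000176153, chromosome 14, 64939152 to 64942905, minus strand), a glutathione peroxidase of epithelia that removes hydrogen peroxide, was the lowest of them. It had 3056 counts in the control, 2220 with sh1 and 2067 with sh2, log2 ratios of -0.56 (-0.64 to -0.48) and -0.64 (-0.73 to -0.56). The match printed first above is from GPX2, and a relation between such matches and the ratios was not tested. The GPX2 locus is shared with CHURC1 on the other strand (524, 606 and 606 counts). GCLC and GCLM, the catalytic and modifier subunits of the enzyme that starts glutathione synthesis, were closer to the control. GCLC had 3297, 3043 and 3446 counts (-0.22 and -0.02). GCLM had 4633, 4125 and 4187 counts (-0.27 and -0.23). GSR, which returns oxidized glutathione to its reduced form, had 6868, 7169 and 6386 counts (-0.04 and -0.19). GSTM3, a glutathione transferase of the mu class, had only 279, 329 and 236 counts, and its ratios of 0.14 (-0.10 to 0.37) and -0.32 (-0.58 to -0.07) are the least precise of the group.

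The 4 thioredoxin genes did not share a direction. TXN, the small protein that reduces disulfides, was higher, at 8320, 10761 and 10559 counts (0.27, interval 0.23 to 0.31, and 0.26, 0.22 to 0.30). TXNRD1, the selenoprotein that recharges it with NADPH, was lower, at 45826, 39620 and 37303 counts (-0.31, -0.33 to -0.29, and -0.38, -0.40 to -0.36). The carrier and its reductase thus lay on opposite sides of the control in these libraries, each by less than 1.5-fold. PRDX1, a peroxiredoxin that thioredoxin keeps reduced, had 11431, 13684 and 11859 counts. Its ratio was 0.16 in DDX24-sh1 and -0.03 (-0.06 to 0.01) in DDX24-sh2, the latter 0.0013 with scaling by total counts. SRXN1, sulfiredoxin, which repairs over-oxidized peroxiredoxins, had 692, 676 and 535 counts (-0.13, -0.29 to 0.02, and -0.45, -0.62 to -0.29). It was lower than the control beyond counting error in DDX24-sh2 alone.

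Among the haem and iron genes HMOX1 stood apart. HMOX1 (ENSG00000100292, chromosome 22, 35380361 to 35394214, plus strand) encodes haem oxygenase 1, which opens haem to biliverdin, carbon monoxide and free iron. It had 11083 counts in the control, 7098 with sh1 and 4833 with sh2, so the 3 libraries were in descending order. The levels were 59.8% and 41.2% of the control, log2 ratios of -0.74 (-0.79 to -0.70) and -1.28 (-1.33 to -1.23). The DDX24-sh2 library was below DDX24-sh1 by 0.54 (-0.59 to -0.48). DDX24 itself was higher in DDX24-sh2 than in DDX24-sh1, and a relation between HMOX1 and the DDX24 level was not tested. BLVRB, a biliverdin and flavin reductase, had 3525, 4380 and 3178 counts and lay on both sides of the control (0.21 and -0.23). Ferritin, which stores the iron set free, was uneven as well. FTL had 128239, 142947 and 145198 counts (0.06 and 0.10), while FTH1, the heavy chain, had 42486, 51307 and 37945 (0.17 and -0.24). The annotation lists 16 FTL pseudogenes with 19 to 30 counts together and 25 FTH1 pseudogenes with 653 to 1143. Adding them gave 0.06 and 0.10 for FTL and 0.17 and -0.25 for FTH1.

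The 5 genes grouped around NADPH, the reducing power for glutathione and thioredoxin, also fell on both sides of the control, with group medians of 0.03 and -0.18. PGD, of the oxidative branch of the pentose phosphate pathway, had 22856, 22494 and 18373 counts (-0.12 and -0.40). TKT, transketolase of the non-oxidative branch, had 37307, 32956 and 28622 (-0.28, -0.30 to -0.26, and -0.46, -0.49 to -0.44). These 2 were lower than the control, and more so in DDX24-sh2. TALDO1, transaldolase of the same branch as TKT, was near the control at 4952, 5432 and 5745 counts (0.03 and 0.13). ME1, the cytosolic malic enzyme (chromosome 6, 83210389 to 83431071, minus strand), had 3413, 4897 and 3191 counts. It was higher than the control in DDX24-sh1 (0.42, 0.36 to 0.48) and lower in DDX24-sh2 (-0.18, -0.25 to -0.11). IDH1, the cytosolic isocitrate dehydrogenase, had 5286, 7148 and 6091 counts (0.34 and 0.12).

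The aldo-keto reductases, which reduce sugars, lipid aldehydes and steroids, include the gene with the most counts of the set in the control and with sh1. AKR1B1 (ENSG00000085662, chromosome 7, 134442350 to 134459284, minus strand) had 154219 counts in the control, 236561 with sh1 and 135635 with sh2. DDX24-sh1 is the high library, with a log2 ratio of 0.52 (0.51 to 0.53), against -0.27 (-0.28 to -0.26) in DDX24-sh2. AKR1B10, its neighbour on chromosome 7, which reduces retinal and aliphatic aldehydes, had 37796, 43887 and 42529 counts (0.12 and 0.09). The transcripts of the pair are 77.9% identical over 879 nt.

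The AKR1C enzymes, which reduce steroid ketones, lie side by side on chromosome 10 and are much more alike. AKR1C1 and AKR1C2 transcripts are 97.1% identical over 3770 nt, and AKR1C3 is 87.1% identical to either over 1365 to 1366 nt, so the split of reads among them is uncertain. AKR1C1 had 24037, 25537 and 23944 counts (-0.01 and -0.09), the former 0.00058 under DESeq2's size factors. AKR1C2 had 55101, 43061 and 47123 counts (-0.46 and -0.31), and AKR1C3 had 24674, 21389 and 21283 (-0.31 and -0.29). Summed over the 3 genes, which avoids the split, the counts were 103812, 89987 and 92350, log2 ratios of -0.31 and -0.25.

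The other drug and carbonyl enzymes were the role with the highest medians of the enzyme groups, 0.32 for sh1 and 0.25 for sh2, with 5 of 7 above 0 in each. The medians of the 3 efflux pumps were 0.06 for sh1 and 0.35 for sh2, in each case the value of ABCC2. From DDX24-sh1 to DDX24-sh2, ABCC2 was higher (0.28), ABCC3 nearly level (0.05) and ABCC1 lower (-0.19). CES1 (ENSG00000198848, chromosome 16, 55802851 to 55833337, minus strand), a carboxylesterase that cleaves ester drugs, had 764 counts in the control, 1393 with sh1 and 1259 with sh2. The control is the low library, and the levels were 1.70 and 1.56 times as high, log2 ratios of 0.77 (0.64 to 0.90) and 0.64 (0.51 to 0.77). ALDH3A1 (ENSG00000108602, chromosome 17, 19737984 to 19748943, minus strand), which oxidizes aldehydes from lipid peroxidation, had 15912, 23949 and 29243 counts, in ascending order. Its ratios were 0.49 (0.46 to 0.52) and 0.80 (0.77 to 0.83), or 1.40 and 1.74 times the control. NQO1, the quinone reductase often used as the readout of NRF2 activity, was moderately higher, at 25206, 33752 and 31730 counts (0.32, 0.30 to 0.34, and 0.25, 0.23 to 0.28). It thus lay on the other side of the control from NFE2L2 in each library.

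The remaining enzymes of this role lay within 1.5-fold of the control. CBR1, a carbonyl reductase, had 1204, 1607 and 1644 counts (0.32 and 0.37). Its locus overlaps SETD4 on the other strand, which had 178, 205 and 237. UGDH, which makes the UDP-glucuronate used to conjugate drugs, was lower at 11149, 9360 and 9577 counts (-0.35 and -0.30). ALDH1A1, a retinal dehydrogenase, stayed within 0.06 of the control at 96250, 101755 and 106051 counts (-0.02 and 0.06). EPHX1, the microsomal epoxide hydrolase, lay on both sides, at 5289, 6418 and 4383 counts (0.18 and -0.35).

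The efflux pumps, which carry glutathione and glucuronide conjugates out of the cell, differed among themselves. ABCC3 had 5131, 7151 and 7294 counts (0.38, 0.33 to 0.43, and 0.43, 0.38 to 0.48) and was the highest of the 3 relative to the control. ABCC2 had 7652, 8566 and 10294 (0.06 and 0.35), and ABCC1 had 9246, 9504 and 8207 (-0.06 and -0.25). In DDX24-sh2 ABCC2 and ABCC1 were thus on opposite sides of the control.

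OSGIN1 (ENSG00000140961, chromosome 16, 83948282 to 83966332, plus strand), an oxidative stress-induced inhibitor of growth, was the lowest of the 38 relative to the control in DDX24-sh1 and second to HMOX1 in DDX24-sh2. It had 2491 counts in the control, 1207 with sh1 and 1102 with sh2, 45.3% and 41.9% of the control. Its log2 ratios were -1.14 (-1.25 to -1.05) and -1.26 (-1.36 to -1.15), and the shRNA libraries did not differ beyond counting error (-0.11, -0.23 to 0.01). SLC7A11-AS1 had 22, 13 and 25 counts, too few to place it, with ratios of -0.77 (-1.97 to 0.19) and 0.10 (-0.78 to 1.0). It lies on the opposite strand of SLC7A11, which had 7763 counts in Control-sh, so its counts cannot be told apart from reads of that gene where strand was not used.

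The comparison of DDX24-sh2 with DDX24-sh1 does not use the control. The median log2 ratio over the 38 genes was -0.07, beside -0.01 over all genes, and 15 were higher and 23 (60.5%) lower in DDX24-sh2, against 51.8% of all genes lower. At least 1.5-fold, 1 was higher in DDX24-sh2 (SLC7A11-AS1, 2.63% against 5.33% of all genes), with an interval of -0.06 to 2.05. By the same rule 2 were lower (AKR1B1 and ME1, 5.26% against 4.84%). AKR1B1 was lower by 0.78 (-0.79 to -0.77) and ME1 by 0.60 (-0.66 to -0.53). HMOX1 (-0.54), EPHX1 (-0.53), BLVRB (-0.44) and FTH1 (-0.42) came next apart from GSTM3 (-0.46, with few counts), short of 1.5-fold. Of these, BLVRB, FTH1, EPHX1, ME1 and AKR1B1 were above the control in DDX24-sh1 and below it in DDX24-sh2. The largest values in the other direction with intervals beyond 0 were ALDH3A1 (0.31, 0.28 to 0.33) and ABCC2 (0.28, 0.24 to 0.33).

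Beside the 38 genes, 34 other genes of the pathway were examined, of which 31 averaged 1 CPM or more. In DDX24-sh1, 3 were at least 1.5-fold higher than Control-sh (9.68%) and 4 lower (12.9%), and in DDX24-sh2, 3 were higher (9.68%) and 3 lower (9.68%), against the shares of all genes given above. The lower ones include the other small MAF genes. MAFK had 4562, 1770 and 1346 counts (-1.46, -1.55 to -1.39, and -1.84, -1.93 to -1.75), and MAFF had 523, 321 and 186 (-0.80, -1.01 to -0.60, and -1.56, -1.82 to -1.33). MAFG, MAFF and MAFK were thus lower in each shRNA library than in the control. SESN2, a sestrin made under oxidative and nutrient stress, had 713, 318 and 353 counts (-1.26 and -1.09). On the higher side were CYP4F11, a cytochrome P450 of fatty acids, at 207, 367 and 454 counts (0.72 and 1.05), and CBR3, a carbonyl reductase, at 23, 55 and 45 counts (1.1, 0.43 to 1.93, and 0.84, 0.13 to 1.68). The remaining genes past 1.5-fold in a library, named after their values were seen, were TRIM16L (lower in DDX24-sh1), BLVRA (higher in DDX24-sh1) and ABCB6 (higher in DDX24-sh2). Of these, ABCB6 had only 20, 21 and 41 counts, with a ratio of 0.89 (0.15 to 1.80) in DDX24-sh2.

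SLC7A11 and SQSTM1, widely used genes of the pathway outside the 38, lay within 1.5-fold of the control. SLC7A11, the cystine carrier that feeds glutathione synthesis, had 7763, 6007 and 5897 counts (-0.47, -0.52 to -0.42, and -0.48, -0.53 to -0.43). SQSTM1, the p62 autophagy receptor that binds KEAP1, had 26491, 26903 and 24207 (-0.08 and -0.21). The plot of these other genes shows the small MAF genes and SESN2 at the low end and most genes between the 1.5-fold lines.

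**Figure D5:**
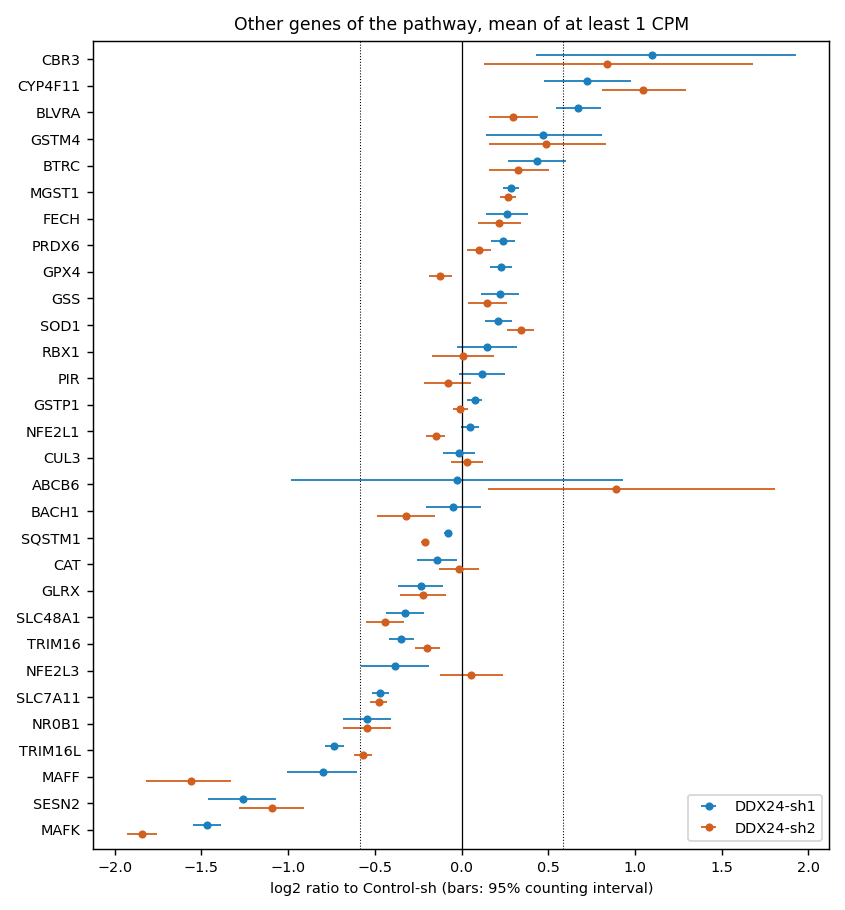
Log2 ratio to Control-sh of the other pathway genes averaging 1 CPM or more in DDX24-sh1 (blue) and DDX24-sh2 (orange), ordered by DDX24-sh1, with exact 95% counting intervals and dotted lines at 1.5-fold. MAFK is the lowest at -1.46 and -1.84, and CBR3 and CYP4F11 are at the high end, CBR3 with wide intervals.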

How the data were processed

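For 3 A549 libraries the authors deposited unnormalized whole-number counts and FPKM, both by gene, on the identifiers of GENCODE 29 (GRCh38). The submitters' processing notes name TopHat2 2.0.9, Bowtie2 2.0.6, Cufflinks 2.1.1 and Cuffdiff 2.1.1. The deposited FPKM lay within 1% of a constant times count over gene length for 100% of 11641 genes with at least 50 counts in Control-sh, but in the shRNA libraries only with their names exchanged (5.33% and 5.32% as labelled). Which naming is right is not known.

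Counts were scaled in R 4.3.3 with edgeR 4.0.16 (TMM, prior count of 2). With 1 library per condition, no differences were tested. Intervals are exact 95% conditional binomial (Clopper-Pearson) intervals of 2 counts, which treat reads as independent molecules although no molecular identifiers were used. The 38 genes, the roles and the other lists were chosen with earlier results of these data known. All 38 were named, with DDX24, SLC7A11, SQSTM1 and the other pathway genes at least 1.5-fold from Control-sh in the same direction in each shRNA library. A further gene set for naming whatever its values is not reported here. Counts of genes past a fold in both shRNA libraries were planned and are not given, because both ratios share the control. Of the 38 genes, 12 overlap a protein-coding gene and 22 a gene on the other strand. Copies were compared with BLAST 2.17.0. The scaling and intervals were tested on simulated data. Alternatives were DESeq2 1.42.0 size factors, total counts, a prior count of 0.5, the FPKM as log2(FPKM + 0.1), other minimum levels and a 2-fold rule.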

Additional observations from a re-analysis of the deposited data

How the results depend on the processing

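With DESeq2's size factors, scaling by total counts or a prior count of 0.5, no count of genes past 1.5-fold and no median over the 38 genes moved beyond its limit (1.5 times for a count, 0.0463 and 0.0492 in log2 units for a median in DDX24-sh1 and DDX24-sh2, the typical distance from a ratio to the end of its counting interval). Over all genes the median ranged from -0.03 to 0.0029 across the 3 scalings. With AKR1C1, AKR1C2 and AKR1C3 summed into 1 entry, the median in DDX24-sh1 was 0.0072 in place of -0.02, so its sign is not settled. The deposited FPKM, under its own labels, gave medians of -0.197 for DDX24-sh1 and -0.0030 for DDX24-sh2, 2 and 1 of the 38 genes at least 1.5-fold higher, and 0.077 for SLC7A11-AS1 in DDX24-sh1, on the other side of the control. These follow from the exchanged names. With the names exchanged back, 3 of the 38 genes were 1.5-fold lower in DDX24-sh1, since MAFG (-0.57) and SLC7A11-AS1 (-0.51) came to lie short of it. A 2-fold rule can only keep or lower a count. At 2-fold, 0 of the 38 were higher in either library, and 1 in DDX24-sh1 and 2 in DDX24-sh2 were lower. Of the other pathway genes, 1 was then higher in DDX24-sh1, 1 in DDX24-sh2 and 2 lower in DDX24-sh1. Their number 1.5-fold higher in DDX24-sh2 was 5 with no minimum level and 1 among genes averaging 10 CPM or more. Leaving out mitochondrial genes raised the share of counts on the 38 genes to 5.03%, 5.41% and 4.92%, a rise that follows by construction. Leaving out SLC7A11-AS1 and adding the ferritin pseudogenes were chosen after seeing the data and moved no count or value past its limit. The background among protein-coding genes and the counts over both shRNA libraries were not run. No paired analysis was possible because each condition has 1 library. Depth limits SLC7A11-AS1, GSTM3, CBR3 and ABCB6, with 13 to 25, 236 to 329, 23 to 55 and 20 to 41 counts.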
